A study of Homo sapiens with 6 samples.

Results

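KLF5 sites of 16HBE14o- cells that had no counterpart in either Calu-3 peak list were examined. They were chosen by the peak positions alone, as the peaks of the 16HBE14o- KLF5 list that share no base with a KLF5 peak or a CEBPB peak of Calu-3. This rule kept 2310 of the 3262 peaks in the 16HBE14o- list (70.8%, exact 95% confidence interval 69.2 to 72.4). Of the remaining peaks, 584 overlapped CEBPB only, 220 overlapped Calu-3 KLF5 only and 148 overlapped both. The lists were obtained by chromatin immunoprecipitation and sequencing (ChIP-seq) of untreated cells grown in DMEM with 10% FBS, with 2 samples for each of 3 groups. 16HBE14o- is an immortalised human bronchial epithelial line, and Calu-3 is a bronchial epithelial line from a lung adenocarcinoma. KLF5 was precipitated from 16HBE14o- with the antibody sc-398470 in both samples, whereas in Calu-3 that antibody was used for replicate 2 and a rabbit anti-KLF5 antibody for replicate 1. CEBPB was precipitated from Calu-3 with sc-7962, and no CEBPB data from 16HBE14o- were analysed here, so "without CEBPB" refers to Calu-3 chromatin only. Each line stands for 1 genetic background.

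KLF5 is a Krüppel-like zinc finger transcription factor that binds GC-rich and CACCC-type elements in promoters and enhancers. It is known for roles in proliferating and basal epithelial cells and in the differentiation of airway epithelium. CEBPB is a basic leucine zipper factor that acts in inflammatory and differentiation programmes of the lung epithelium.

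Each list was made by the authors from both samples of a group. The values below are therefore 1 value per peak, with no error between samples. Cell line and antibody were partly confounded, and their shares in the absence of a Calu-3 peak cannot be told apart. At unknown sequencing depth, a missing peak does not show missing binding. No test between classes of peaks was made, because peaks are not replicates. The 95% intervals cover counting error over peaks only.

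Members were mostly peaks of moderate signal. Their signal, a height set by the authors and used only within the list, ran from 8.66 to 149, with 50% of the members between 25.0 and 35.7. The median was 29.3 (95% interval 28.9 to 29.7), which corresponds to percentile 46.3 of the list (44.4 to 48.1). Peaks that overlapped CEBPB only had a median of 30.0 (29.0 to 31.0), and its interval overlapped that of the members. Both classes shared with Calu-3 KLF5 lay higher, at 37.0 (34.6 to 40.1) without CEBPB and 36.6 (34.8 to 41.2) with it. The members therefore resembled the other peaks found in 16HBE14o- only, irrespective of Calu-3 CEBPB, and sat below the shared peaks.

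**Figure D1:**
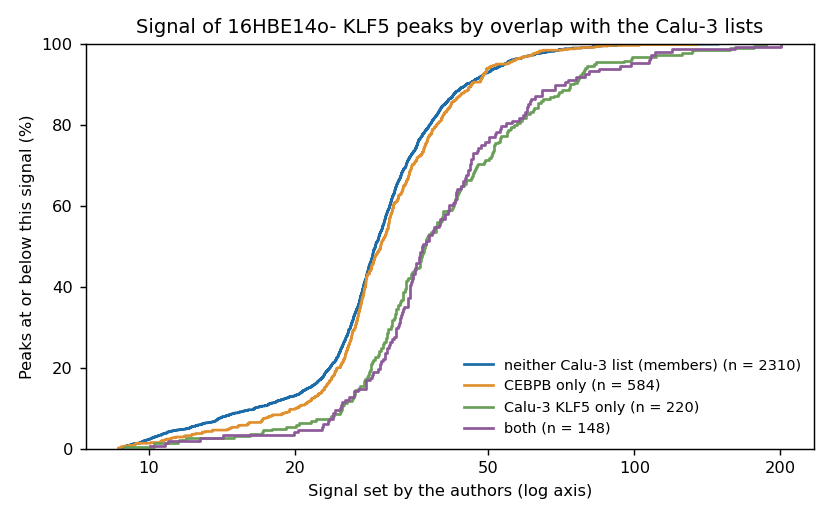
Cumulative share of peaks (y axis, %) at or below each signal (x axis, authors' units, log axis) for the 4 overlap classes of the 16HBE14o- KLF5 list. The members (n = 2310) and the peaks with CEBPB only (n = 584) run close together, with medians of 29.3 and 30.0, and both classes shared with Calu-3 KLF5 lie to their right, with medians of 37.0 and 36.6.

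By the authors' score and q-value, too, the members lay below both classes shared with Calu-3 KLF5. The highest score of the list, 1000, was reached by 665 members (28.8%, 26.9 to 30.7), by 33.7% (29.9 to 37.7) of the peaks with CEBPB only, by 58.2% (51.4 to 64.8) of those shared without CEBPB and by 62.2% (53.8 to 70.0) of those shared with it. A q-value of 0.05 or less was deposited for 1773 members (76.8%, 75.0 to 78.5), compared with 80.0% (76.5 to 83.1) of the peaks with CEBPB only, 91.4% (86.8 to 94.7) of those shared without CEBPB and 90.5% (84.6 to 94.7) of those shared with it. The class at the corresponding place in the other line, 637 Calu-3 KLF5 peaks that overlapped neither 16HBE14o- KLF5 nor CEBPB, also sat below the middle of its own list, at median percentile 43.1 (37.5 to 47.4).

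Ordered by signal, the list held fewer members toward its top. Members made up 262 of the 327 peaks in the 10% of lowest signal (80.1%, 75.4 to 84.3) and 179 of the 327 in the 10% of highest signal (54.7%, 49.2 to 60.2). The share of peaks with CEBPB only had no such course, at 15.0% (11.3 to 19.3) in the lowest and 14.1% (10.5 to 18.3) in the highest 10%. At the very top, members were 1 of the 10, 3 of the 20, 20 of the 50 and 44 of the 100 strongest peaks. Members, 70.8% of the whole list, remained the largest class in its strongest 10%, but at a share below that of the whole list.

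**Figure D2:**
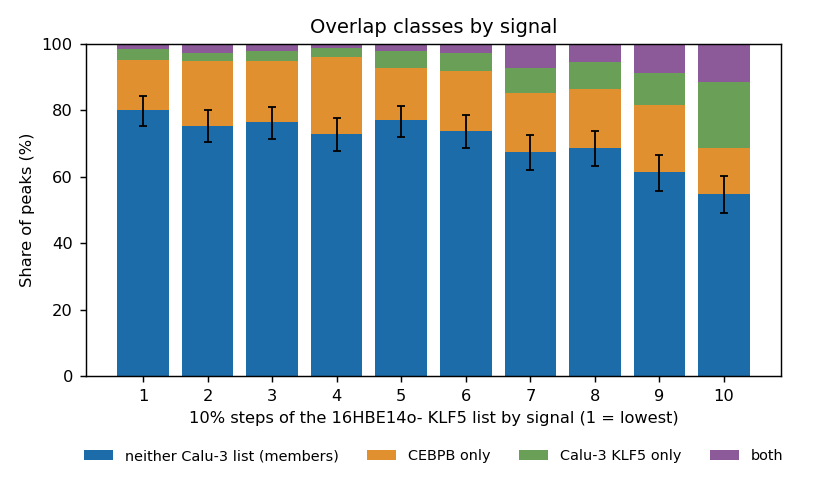
Share of peaks (y axis, %) in each overlap class, in 10% steps of the 16HBE14o- KLF5 list ordered by signal (x axis, 1 lowest, 10 highest). Black bars are exact 95% intervals of the members' share, which was 80.1% in the lowest and 54.7% in the highest step.

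The 10 strongest members lay on 7 chromosomes, given here by hg19 position, since no hg19 gene annotation or sequence was used. The strongest, chr14:55570088-55570223, had a signal of 149 and was sixth in the whole list by signal. Its nearest Calu-3 KLF5 peak was 209 kb away, but a CEBPB peak at percentile 91.1 of its list lay only 878 bp away. Next came 2 sites on chromosome 17, chr17:41150123-41150466 (signal 106, rank 17) and chr17:41400778-41401121 (signal 98.8, rank 20), which lay 321 and 571 kb from the nearest Calu-3 KLF5 peak. The first stood alone, with 249 kb to the nearest other 16HBE14o- peak and 105 kb to the nearest CEBPB peak, whereas the second had another member 0.596 kb away and a CEBPB peak 4.98 kb away.

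Of the following members, chr11:95724305-95724648 (signal 95.5, rank 23) was the most remote, 4378 kb from the nearest Calu-3 KLF5 peak and 107 kb from the nearest CEBPB peak. The site chr16:85387448-85387791 had a signal of 94.6 and lay 258 kb from Calu-3 KLF5 and 33.1 kb from CEBPB. Site chr6:150070749-150070863 (signal 92.2) was 1116 kb from Calu-3 KLF5. Chromosome 20 contributed chr20:49875147-49875490 (signal 92.0) and chr20:55181578-55181921 (signal 91.3), at 278 and 138 kb from the nearest Calu-3 KLF5 peak. A member on chromosome 1, chr1:29451092-29451178 (signal 91.7), was the only one of the 10 whose nearest 16HBE14o- neighbour, 115 kb away, was a shared peak. The last of the 10 was chr14:75033534-75033877 (signal 86.2), with another member 4.95 kb away. All 10 had the highest score, as did 99.1% of the 231 strongest members. None had a Calu-3 KLF5 peak within 100 kb, which also held for 72.6% of all members.

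Width carried almost no information. It was 344 bp for 2307 of the 2310 members, and the 3 narrower members (136, 115 and 87 bp) were all among the 10 strongest. The same held in the whole list, where all 18 entries of another width were among the 29 of highest signal.

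Near misses of the overlap rule were fewer for KLF5 than for CEBPB, but these counts were not adjusted for list length. The Calu-3 lists held 1510 KLF5 peaks and 69386 CEBPB peaks. A Calu-3 KLF5 peak lay within 1 kb of 38 members (1.65%, 1.17 to 2.25) and within 10 kb of 156 (6.75%, 5.76 to 7.85), whereas a CEBPB peak lay within 1 kb of 297 members (12.9%, 11.5 to 14.3) and within 0.1 kb of 52. The closest was chr19:56632868-56633211 (signal 18.2), 3 bp from a Calu-3 KLF5 peak, followed by chr2:38303725-38304068 (signal 33.4) at 51 bp and chr20:60925435-60925778 (signal 24.5) at 79 bp. Just outside the rule, chr15:72523882-72524225 (signal 20.1) and chr17:79046139-79046482 (signal 16.2) shared 1 and 22 bp with Calu-3 KLF5. For CEBPB, 3 members touched a CEBPB peak with 0 bp between them, among them chr15:20545815-20546158 (signal 60.5) and chr19:18391092-18391435 (signal 27.7). The excluded peaks chr1:46016488-46016831 (signal 30.4) and chr7:56032304-56032647 (signal 15.2) shared 1 bp with CEBPB.

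Most members were far from any Calu-3 KLF5 peak. The median gap was 349 kb (311 to 387), and 664 members (28.7%, 26.9 to 30.6) were more than 1000 kb away. Peaks with CEBPB only had a median gap of 320 kb (265 to 375), so the intervals of both classes overlapped. The greatest gap was 28.3 Mb, at chrX:12994362-12994705 (signal 33.0). Such gaps depend on the length of the Calu-3 KLF5 list, 1510 peaks. Members within 1 kb of a Calu-3 KLF5 peak had median signal percentile 37.3 (16.3 to 58.8, n = 38) and those beyond 100 kb had 46.9 (44.6 to 48.8, n = 1676). The first interval is wide and contains the second, so these values do not show whether signal differed with distance.

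CEBPB peaks of Calu-3 were much nearer, as their list held 69386 peaks. The median gap from a member to CEBPB was 9.93 kb (9.09 to 10.6). Calu-3-only KLF5 peaks without CEBPB were closer to CEBPB, with a median gap of 7.16 kb (6.62 to 8.28) and 60.1% (56.2 to 63.9) within 10 kb, against 50.4% (48.3 to 52.5) of the members. These classes were spread differently over the chromosomes, as described below, and the effect of this on the gaps was not tested. For KLF5 peaks shared by both lines without CEBPB the median gap was 8.29 kb (6.34 to 10.05), with an interval that overlapped that of the members. Members within 1 kb of a CEBPB peak had a lower median signal percentile, 39.7 (33.8 to 44.0), than those 1 to 10 kb away, 49.2 (45.6 to 52.0). Those 10 to 100 kb away had 46.4 (43.9 to 48.4) and those beyond 100 kb had 44.5 (36.0 to 55.8, n = 65). Both of the latter intervals overlapped that of the members within 1 kb.

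**Figure D3:**
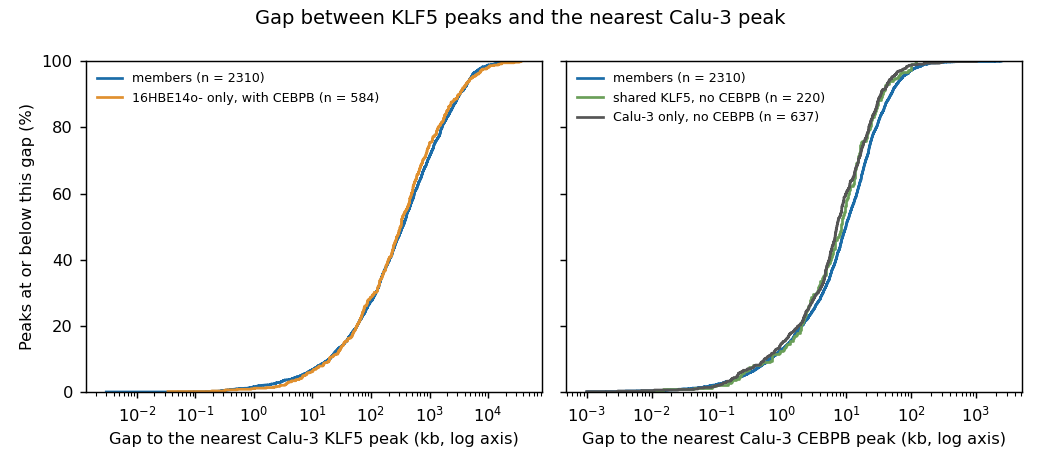
Cumulative share of peaks (y axis, %) by the gap to the nearest Calu-3 KLF5 peak (left) or Calu-3 CEBPB peak (right), in kb on log axes, with gaps of 0 drawn at 1 bp. In the left panel the members and the 16HBE14o--only peaks with CEBPB nearly coincide (medians 349 and 320 kb), and in the right panel the Calu-3-only peaks lie left of the members (medians 7.16 and 9.93 kb).

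Within their own list, members were often close to one another. Of the 2310 members, 704 (30.5%, 28.6 to 32.4) lay in chains with gaps of at most 10 kb, which formed 251 pairs and 57 larger groups of up to 6. A neighbour within 10 kb of either kind, member or not, was found for 34.8% (32.9 to 36.8) of the members, 28.6% (25.0 to 32.4) of the peaks with CEBPB only, 35.5% (29.1 to 42.2) of those shared without CEBPB and 31.1% (23.7 to 39.2) of those shared with it. When all peaks of the list were chained, 99 members were in a chain with 1 or more of the 220 and 148 peaks shared with Calu-3 KLF5 without and with CEBPB, and 100 in a chain with 1 or more of the 584 peaks with CEBPB only. Lone members had a higher median signal percentile, 52.0 (50.1 to 53.7), than members in groups, 26.6 (22.1 to 30.6).

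Much of this grouping came from entries that overlapped each other. A total of 392 members (17.0%, 15.5 to 18.6) shared bases with another 16HBE14o- entry, as did 15.1% (12.3 to 18.2) of the peaks with CEBPB only, 10.9% (7.12 to 15.8) of those shared without CEBPB and 8.78% (4.76 to 14.6) of those shared with CEBPB. Overlapping pairs in which both entries were members numbered 191, with summits 199 to 342 bp apart and a median spacing of 207 bp. Within a pair the signals were unequal, with medians of 12.1 (11.1 to 12.8) for the lower and 26.3 (25.2 to 27.1) for the higher entry. The overlapping members had a median signal of 17.3 (15.6 to 18.7), against 30.6 (30.2 to 30.9) for the other 1918 members. Of the 231 members in the lowest 10% by signal, 185 overlapped another entry (80.1%, 74.3 to 85.0), compared with 10 of 231 (4.33%, 2.10 to 7.82) in the highest 10%. The low end of the members' signal was thus made up mostly of entries that share bases with another 16HBE14o- peak. Score and signal did not run in parallel there: the highest score was given to 26 of the 231 members of lowest signal (11.3%), to 2 of the 231 in the third step of 10% (0.866%) and to 229 of the 231 of highest signal (99.1%). A signal under 20 was found for 222 of the 392 overlapping members (56.6%, 51.6 to 61.6) and for 82 of the others (4.28%, 3.41 to 5.28). Their q-values differed likewise, with 32.1% (27.5 to 37.0) of the overlapping members and 85.9% (84.2 to 87.4) of the others at 0.05 or less.

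Several loci held many members. Members that shared bases with each other were counted as separate entries, so these counts can exceed the number of separate sites. The largest chain with gaps of at most 50 kb had 14 members in 136 kb at chr20:60879568-61015161, with signals from 10.3 to 60.5 and a median of 24.5. It was a mixed locus, since the same span held 4 peaks shared with Calu-3 KLF5, 4 peaks with CEBPB only and 6 Calu-3 KLF5 peaks. A further 12 members were at chr20:62084892-62217299, with signals from 12.2 to 59.7 and 2 Calu-3 KLF5 peaks in the span. On chromosome 11, 10 members lay at chr11:65756964-65838089 (signals 8.67 to 36.5), with 1 Calu-3 KLF5 peak in the span. A further 9 lay at chr11:65266313-65340227 (signals 9.12 to 73.7), where the span held no KLF5 peak of Calu-3. Both spans on chromosome 11 included pairs of members that shared bases, so they held fewer separate sites than members.

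The 4 spans described next do not follow in order of size, and in each of them every 16HBE14o- KLF5 peak was a member. Mixed spans of similar or larger size were also present on chromosome 20. These were chr20:49230468-49359057 (10 members, 3 other 16HBE14o- peaks), chr20:48726517-48858868 (9 and 4) and chr20:62477690-62612713 (9 and 2). At chr20:49868013-49962448, 9 members with signals from 22.0 to 92.0 filled 94.4 kb, 271 kb from the nearest Calu-3 KLF5 peak. At chr20:55966157-56076887, 9 members reached a signal of 74.5 and were 186 kb from Calu-3 KLF5. A compact group of 6 at chr14:105144328-105164542, a chain with gaps of at most 10 kb, lay within 20.2 kb. Its signals reached 64.5, with a median of 33.2, and the nearest Calu-3 KLF5 peak was 393 kb away. At chr3:87658551-87702418, 8 weaker members, with signals from 13.8 to 34.0, lay 1142 kb from the nearest Calu-3 KLF5 peak. Another remote group, 5433 kb from Calu-3 KLF5, was mixed and was also a chain with gaps of at most 10 kb. At chr15:20545815-20550794, 5 members with signals from 10.8 to 60.5 lay within 4.98 kb together with 1 16HBE14o- peak that overlapped CEBPB. Altogether 14 chains with gaps of at most 50 kb held 8 or more members, and 10 of them, with 96 of their 131 members, were on chromosome 20.

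Members were found on 23 chromosomes, in numbers from 30 to 334. Chromosome 20 held 334 of them (14.5%, 13.0 to 16.0), 323 of these beyond 25 Mb. The other classes of the same list had similar shares there, 13.5% (10.9 to 16.6) of the peaks with CEBPB only and 12.5% of the shared peaks, whereas Calu-3-only KLF5 peaks without CEBPB had 5.49% and CEBPB 2.40%. Members on chromosome 20 were weaker, at median percentile 33.5 (28.6 to 37.9) against 47.9 (46.1 to 50.1) elsewhere, and more often within 10 kb of another member, 51.2% (45.7 to 56.7) against 27.0% (25.0 to 29.0). Of the members that overlapped another entry, 18.9% (15.1 to 23.1) were on chromosome 20, compared with 13.6% (12.1 to 15.2) of the others. These intervals overlapped slightly.

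On chromosome 11 the intervals of the members and of the peaks with CEBPB only did not overlap. It held 198 members (8.57%, 7.46 to 9.79) and 23 of the peaks with CEBPB only (3.94%, 2.51 to 5.85). Of the whole 16HBE14o- list it held 7.57% (6.69 to 8.53), with an interval that overlapped that of the members. The shared peaks, at 7.07% (4.67 to 10.2), had an interval that overlapped those of both classes. Chromosome 14 held 7.32% (6.29 to 8.45) of the members, 7.02% (5.08 to 9.40) of the peaks with CEBPB only and 4.08% (2.30 to 6.63) of the shared peaks. It held 1.41% of the Calu-3-only peaks without CEBPB. The reverse was seen on chromosome 3, with 3.38% (2.68 to 4.20) of the members and 22.6% of the Calu-3-only peaks. Members and shared peaks also differed by chromosome, with intervals that did not overlap on chromosomes 6, 8, 19 and 21. Members had the larger share on chromosome 6, 5.63% (4.72 to 6.65) against 1.63% (0.60 to 3.51), and on chromosome 21. They had the smaller share on chromosome 19, 3.59% (2.87 to 4.43) against 10.1% (7.18 to 13.6), and on chromosome 8. Seen from each chromosome, members made up from 54.6% (46.3 to 62.7) of the 16HBE14o- peaks on chromosome 19 to 84.5% (72.6 to 92.7) on chromosome 21, and on 18 of the 23 chromosomes the share was between 60 and 80%.

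**Figure D4:**
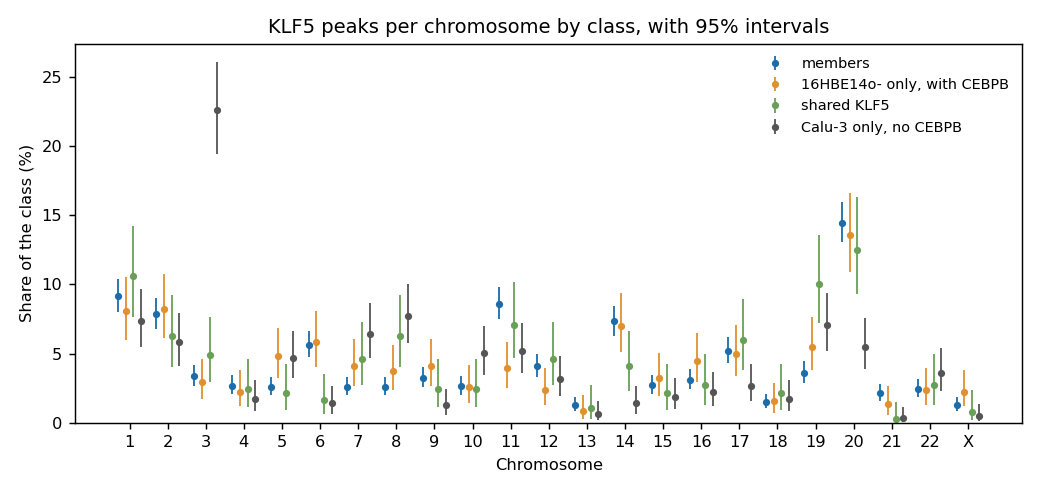
Share of each class (y axis, %) on each chromosome (x axis), with exact 95% intervals, for the members, the 16HBE14o--only peaks with CEBPB, the KLF5 peaks shared by both lines and the Calu-3-only peaks without CEBPB. On chromosome 20 the members (14.5%) and the other 16HBE14o- classes lie above the Calu-3-only peaks (5.49%), and on chromosome 3 the Calu-3-only peaks (22.6%) lie above the members (3.38%).

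In 603 bins of 5 Mb that held any peak of the lists, the median number of members was 2 and the maximum 91. The 5 fullest bins held 320 members (13.9%). They were on chromosome 20 at 60 to 65 Mb (91 members), 45 to 50 Mb (73) and 55 to 60 Mb (51), on chromosome 11 at 65 to 70 Mb (65) and on chromosome 3 at 85 to 90 Mb (40). The corresponding numbers of Calu-3 KLF5 peaks were 16, 18, 9, 23 and 1. The bin of chromosome 3 differed from the other 4 in that it held no shared peak and only 3 peaks with CEBPB only. Members in these 5 bins had median percentiles between 27.7 and 34.1, below the median of all members. A bin of chromosome 14 at 65 to 70 Mb held 22 members and 0 Calu-3 KLF5 peaks, although 132 CEBPB peaks were listed there.

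Of the 603 bins, 216 had no Calu-3 KLF5 peak, and 109 of these 216 held members. Together the 216 bins held 307 members (13.3%, 11.9 to 14.7) and 69 of the peaks with CEBPB only (11.8%, 9.31 to 14.7). Across the 603 bins, the number of members followed that of the 16HBE14o- peaks with CEBPB only most closely (Spearman rho = 0.60), then that of the shared peaks (0.46), of all Calu-3 KLF5 peaks (0.43), of the Calu-3-only peaks without CEBPB (0.32) and of CEBPB (0.17). These coefficients describe bins that share libraries, mappable length and gene content, and the first 2 pairs come from a single list.

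**Figure D5:**
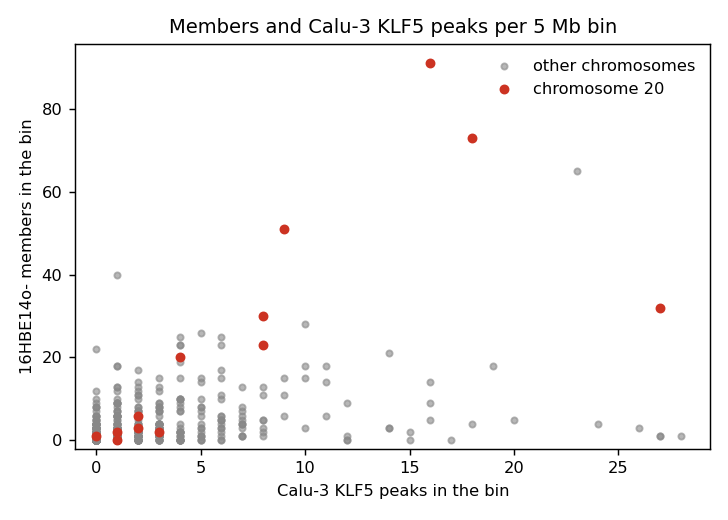
Number of members (y axis) against the number of Calu-3 KLF5 peaks (x axis) in each of 603 bins of 5 Mb, with bins of chromosome 20 in red. The bins with 91, 73 and 51 members are on chromosome 20, and the grey point with 40 members and 1 Calu-3 KLF5 peak is on chromosome 3.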

How the data were processed

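ChIP-seq of KLF5 in 16HBE14o- and of KLF5 and CEBPB in Calu-3 was deposited as 1 peak list per group, made from both samples, per the labels and the series' design text. Per the file headers, positions are on hg19 (the build that the submitters' processing notes also name) and the lists come from the irreproducible discovery rate procedure. The aligner, the peak caller and any control library are not given in the sources used here. The deposited signal, score and −log10 q-value of each peak are the authors' own and were compared only within a list; their normalization and the sequencing depth are unknown. The summit offset of each peak was read from the deposited lists.

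Peaks sharing at least 1 bp were taken as overlapping, and overlapping entries were kept apart. Groups were chains of members with gaps of at most 10 or 50 kb. Shares have exact Clopper-Pearson intervals and medians have order-statistic intervals, both at 95%. Overlap calls were checked against bedtools 2.31.1 on simulated peaks. Python 3.11.15, numpy 2.4.6, scipy 1.17.1, pandas 2.3.3 and matplotlib 3.10.9 were used. Text names the 10 strongest members, the peaks nearest the overlap rule and some of the larger groups, not strictly in order of size. The bins, the chromosomes singled out and the overlap among entries were chosen after the values were seen. The members and these descriptions were chosen with earlier results of the same data known. Planned descriptions of start sites, gene lists and motifs were not run, because no hg19 annotation or sequence was used here.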

Additional observations from a re-analysis of the deposited data

How the results depend on the processing

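The median signal percentile of the members, 46.3, was 45.8 to 47.1 under the alternatives run, but it was ranked anew in each list, of which members were a large part, so it had little room to move; the width is nearly constant and says nothing about stability. The number of members, 2310, was 1530 when Calu-3 peaks within 5 kb also counted as overlap, 1064 in the 50% of the list with higher signal and 665 among peaks of the highest score. As a share of the list, 70.8% became 79.4% when summits within 100 bp were required, 64.6% with Calu-3 peaks within 500 bp counted, 46.9% within 5 kb, 77.1% with CEBPB peaks of q 0.05 or less, 65.2% in the higher 50% by signal and 61.5% at the highest score. Members with another member within 10 kb, 30.5%, were 27.4% with Calu-3 peaks within 5 kb counted, 9.30% in the higher 50%, 16.1% at the highest score, 17.4% with overlapping entries merged, 27.0% without chromosome 20, and 21.8% or 48.1% at distances of 2 or 50 kb. The share on chromosome 20, 14.5%, was 12.1% with Calu-3 peaks within 5 kb counted, 11.2% in the higher 50% and 11.6% at the highest score. Selections that keep fewer members also leave fewer neighbours. The cause was not tested. No paired analysis was possible because the samples of a group were combined in its list, and no sample could be left out for the same reason. Alternatives for start sites, motifs and gene lists were not run. Depth is unknown, so weak binding in Calu-3 below the authors' threshold would not be seen.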
